A study of Mus musculus with 8 samples.

Results

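The comparison described here is the difference between 2 responses: how far the response of mouse embryonic fibroblasts (MEFs) to interleukin-6 (IL-6) differed between Arid5a-/- cells and wild-type cells, gene by gene. All 8 libraries of the study entered it, 2 in each of 4 groups. These were wild-type (WT) MEFs kept for 24 h without IL-6, WT MEFs given 100 ng/ml IL-6 for 24 h, Arid5a-/- MEFs (KO) kept for 24 h without IL-6, and KO MEFs given 100 ng/ml IL-6 for 24 h. The value followed for each gene was the IL-6 change in KO minus the IL-6 change in WT, on the scale log2(FPKM + 1), where FPKM stands for fragments per kilobase of transcript, scaled to the mapped fragments of the library. A negative value means that the change in KO lay below the change in WT. Of 55358 genes, 13693 reached 1 FPKM in at least 2 of the 8 libraries and were tested. A gene was called when its adjusted p (limma, Benjamini-Hochberg over all 13693 genes) was below 0.05. The labels number the libraries of a group 1 and 2 without saying that they came from separate cultures, and the p-values therefore reflect how much libraries of a group differ, a spread that may be technical. They also give neither the embryos and clones behind each genotype nor the deleted part of Arid5a.

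IL-6 is a secreted cytokine that binds the receptor chain Il6ra, which then engages the shared signal chain gp130, encoded by Il6st. The receptor complex activates Janus kinases, which phosphorylate the transcription factor STAT3, and STAT3 induces among others its own feedback inhibitor Socs3. In fibroblasts the pathway is known for acute phase proteins, cytokines and matrix-remodelling enzymes. Arid5a is an AT-rich interaction domain protein known to bind and stabilise inflammatory mRNAs, those of Il6 and Stat3 among them, and the study set out to find long noncoding RNAs that depend on IL-6 and Arid5a.

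Arid5a itself stood at 18.7 and 15.9 FPKM in WT without IL-6 and 30.9 and 31 FPKM in WT with IL-6, against 5.51 and 6.85 FPKM in KO without and 8.47 and 8.15 FPKM in KO with IL-6. The KO libraries were all lower than the WT libraries but not at 0, and reads from a part of the gene that was kept would not show a deletion. The summed FPKM of a library ran from 536816 to 584995, and the 2 libraries of a group correlated across genes at r = 0.993 to 0.994. The genotypes also differed in what the cells were: without IL-6, 9716 of 13693 genes (71% called) differed between KO and WT, 4991 higher in KO (36.4%) and 4725 lower (34.5%), and with IL-6 9813 (71.7% called), 5046 higher (36.9%) and 4767 lower (34.8%). The Y-linked genes Ddx3y, Eif2s3y, Kdm5d and Uty were expressed in all 4 WT libraries and were at or near 0 in all 4 KO libraries, while Xist stood at 55.2 to 61.0 FPKM in KO and near 0 in WT. Of 14 listed fibroblast markers, 13 averaged at least 1 FPKM in WT and 11 in KO, and Fap was below 1 FPKM in every library. All 14 listed mesothelial markers averaged at least 1 FPKM in KO and 4 did in WT, with a summed level of 67.5 to 79.8 FPKM in WT and 2090 to 2146 FPKM in KO. Limb mesenchyme markers went the other way, at 538 to 605 FPKM summed in WT and 33.7 to 37.8 FPKM in KO. No tested member of the mesothelial, limb and sex-linked lists was called by limma in the difference between responses, against 6.06% of all genes. Unadjusted p was below 0.05 for 3 of 14 mesothelial, 2 of 14 limb and 0 of 5 sex-linked genes, against 21.3% of all genes. Averages below 0.5 FPKM in both groups were found for 10 mesothelial genes in WT and 10 limb genes in KO. The same held for 4 sex-linked genes in KO and 1 in WT. Such genes have no response to compare in that genotype. Of 13 leukocyte markers 2, Cd14 and Cd68, averaged at least 1 FPKM, Ptprc and Adgre1 were at or near 0, and the list summed to 19.3 to 19.5 FPKM in untreated WT, 35.8 to 36.3 FPKM in WT with IL-6 and 4.07 to 5.24 FPKM in KO. Loss of Arid5a and these other differences between the cells cannot be told apart, and in bulk RNA fewer cells of a type and less RNA per cell cannot be told apart either.

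Most genes whose IL-6 response differed between the genotypes were genes that responded in WT cells and moved little in KO cells. The difference was called for 830 of 13693 genes (6.06% called), 482 negative (3.52%) and 348 positive (2.54%). With libraries scaled to an equal FPKM total, 55.1% of 866 calls were positive, against 41.9% of the 830. An unadjusted p below 0.05 was reached by 2915 genes (21.3%). For each of the 830 called genes, the 4 differences that can be formed between an IL-6 library and an untreated library in KO did not overlap the 4 formed in WT, which was so for 5010 of all genes tested (36.6%). Leaving out any 1 of the 8 libraries lowered the count, to between 383 (without replicate 2 of untreated KO) and 523 (without replicate 1 of untreated WT). Within WT, IL-6 changed 2150 genes (15.7% called), 1136 upward (8.3%) and 1014 downward (7.41%). Within KO it changed 3 (0.0219% called), Cebpd, Igfbp3 and Spp1, all upward, while 1025 genes (7.49%) reached an unadjusted p below 0.05. Without replicate 2 of untreated KO no gene was called within KO by limma, with 847 at an unadjusted p below 0.05, and without replicate 1 of untreated KO 1 was called. The IL-6 response of WT held 1165 to 1312 calls without any 1 of the 4 WT libraries. The contrast contains the WT change, so the split of its calls by response only describes them. Of the 482 negative calls, 466 were called upward within WT but not within KO. A further 15 were called within neither genotype, and Igfbp3 was called upward within both. A change that missed the call within KO, where 3 genes passed, is not an absent change. Of the 348 positive calls, 330 were called downward within WT but not within KO, and 18 were called within neither genotype. The 3 genes called within KO were all called upward within WT too, so no gene could be called in opposite directions.

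Genes were separated by level, because a gene that is silent in a genotype has no response there to compare. A group mean of at least 1 FPKM in each genotype was reached by 11945 genes, of which 703 were called (5.89% called), 401 negative and 302 positive. A further 506 genes averaged below 0.5 FPKM in both KO groups, and 95 of these were called (18.8%). For 490 genes that stood below 0.5 FPKM in both WT groups, 3 were called (0.612%). The remaining 752 genes were low in 1 genotype without meeting that limit, with 29 called (3.86%). The fit takes 1 spread per gene from all 4 groups, and groups near 0 add little to it. For genes near 0 in 1 genotype the SE may thus be too small for the genotype that expresses them.

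Among genes expressed in both genotypes, 989 rose in WT, by a median of 0.33 on the log2 scale, and the same genes changed by a median of 0.03 in KO. The KO change had the direction of WT in 63.8% of them, against 52.4% of all genes expressed in both. The 880 genes that fell in WT had a median change of -0.34 in WT and -0.02 in KO, with 61.0% in the same direction. WT and KO libraries are separate samples, so these shares compare changes that share no library. For the 68 genes that rose by at least 1 in WT, the medians were 1.21 in WT and 0.17 in KO, and 25 of them rose by more than 0.25 in KO by value. For the 24 genes that fell by at least 1 in WT, the medians were -1.28 and -0.07, and 4 fell by more than 0.25 in KO by value. Across the 11945 genes the WT changes had an SD of 0.271, against 0.161 expected from the replicate differences alone, and the KO changes 0.18 against 0.157. Pearson's r between the changes was -0.06 and Spearman's rho 0.09, across genes, which are not independent replicates.

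**Figure D1:**
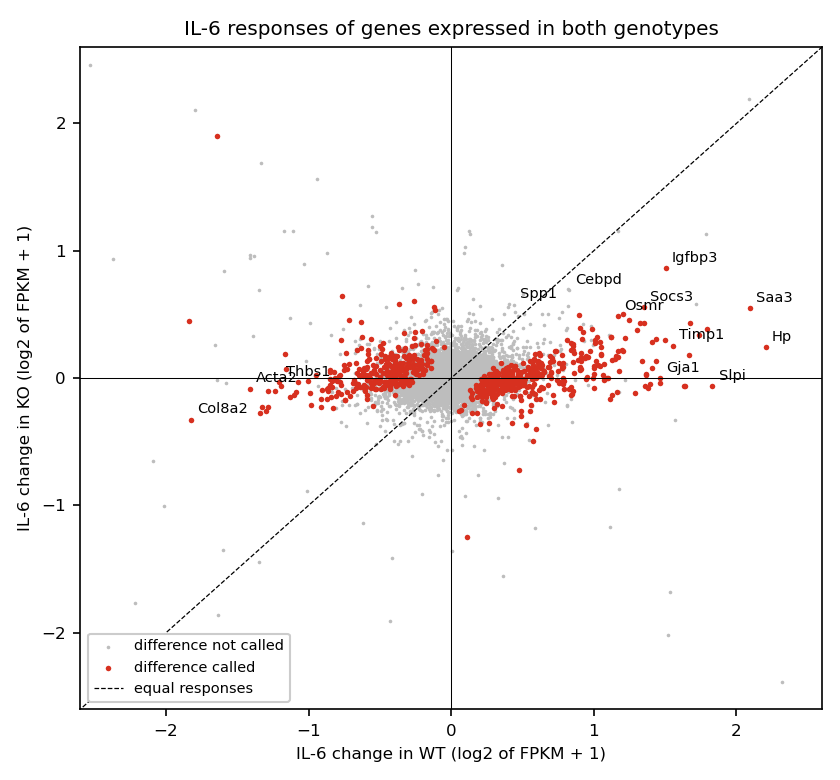
IL-6 change in KO (vertical axis, log2 of FPKM + 1) against IL-6 change in WT (horizontal axis, same unit) for genes expressed in both genotypes, 13 of them outside the axes. Red points are the 703 called genes, which lie mostly along the horizontal line of no KO change and away from the dashed line of equal responses, with Igfbp3 and Cebpd closer to that line than Hp, Slpi or Saa3.

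Untreated levels often differed between the genotypes for these genes. For 388 genes expressed in both, the difference was called, with a rise called within WT but not within KO. Of these, 215 (55.4%) started in untreated KO below both WT levels, 68 (17.5%) between them and 105 (27.1%) above both. Of the 285 such genes with a fall instead, called within WT but not within KO, 140 (49.1%) started above both WT levels and 96 (33.7%) below both. Over all genes expressed in both, 46.3% stood above, 9.8% between and 43.9% below. The interval between the WT levels is wider for genes called within WT, so the shares between them cannot be compared. Untreated genotypes differed (limma adjusted p below 0.05) for 86.9% of called genes expressed in both, against 68.9% of all genes expressed in both. The 2 contrasts share the untreated libraries and the fitted spread of each gene, so part of the gap between these shares may follow from that. Untreated KO and WT levels within 1.5 times of each other were found for 7946 genes expressed in both, and 287 of these were called (3.61%), 171 negative and 116 positive.

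The 10 largest negative differences among genes expressed in both were those of Gm25777, Hp, Slpi, Angptl4, Isyna1, Saa3, Il6, Mt2, Gja1 and Pfkfb3. Hp, which encodes haptoglobin, the plasma protein that binds free haemoglobin (chr8:109575128-109579172), rose from 0.761 and 1.29 FPKM to 8.42 and 8.11 FPKM in WT and read 11.8 and 12.9 FPKM without and 14.6 and 14.9 FPKM with IL-6 in KO. The difference between responses was -1.96 ± 0.17 (SE; limma adjusted p = 0.00125), and every KO library, untreated ones included, stood above every WT library. The difference of Hp was -2.68 with a pseudocount of 0.1 FPKM and -0.95 with 5 FPKM. Slpi encodes a secreted inhibitor of leukocyte proteases (chr2:164354070-164389095) and started from more similar levels, 5.98 and 6.53 FPKM in WT and 7.98 and 8.63 FPKM in KO. With IL-6 it reached 26.4 and 23.3 FPKM in WT and 8.07 and 7.74 FPKM in KO, a difference of -1.89 ± 0.11 (adjusted p = 0.000365). The KO libraries with and without IL-6 overlapped, and both stood between the WT groups.

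Angptl4, a secreted inhibitor of lipoprotein lipase (chr17:33773750-33781830), rose in WT from 11.8 and 12.3 to 42.4 and 37 FPKM and read 2.69 and 2.52 and then 2.3 and 2.6 FPKM in KO. Its difference was -1.70 ± 0.12 (adjusted p = 0.000598), with all KO libraries below all WT libraries. Isyna1, the enzyme that makes inositol phosphate from glucose 6-phosphate (chr8:70594373-70597290), went from 39.1 and 30.8 to 106 and 113 FPKM in WT and from 78 and 77.7 to 72.4 and 76.9 FPKM in KO, a difference of -1.69 ± 0.14 (adjusted p = 0.00125). Gja1, which encodes the gap junction protein connexin 43 (chr10:56377330-56402513), rose in WT from 81.7 and 81.3 to 221 and 233 FPKM. In KO it read 158 and 156 FPKM without and 155 and 159 FPKM with IL-6, between the WT groups, and the difference was -1.47 ± 0.052 (adjusted p = 9.04e-05). Gja1 had, with Timp1, the smallest adjusted p of the comparison among the genes named here.

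Gm25777, a short snoRNA annotation, had a larger fitted value (-5.87 ± 1.32, adjusted p = 0.0458) but is listed at 0 in both untreated WT libraries and in 1 KO library with IL-6. It lost its call without any 1 WT or untreated KO library, where the adjusted p reached 0.13, so it is reported as uncertain. Its value was -10.7 with a pseudocount of 0.1 FPKM and -2.95 with 5 FPKM.

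The largest positive differences with little scatter came from genes that fell in WT, with smaller changes by value in KO. Col8a2, a chain of the short-chain collagen type VIII (chr4:126286793-126314330), fell from 14.5 and 12.7 FPKM to 3.2 and 3.02 FPKM in WT and read 44.4 and 44.8 FPKM and then 34.1 and 36.7 FPKM in KO. The difference was 1.5 ± 0.10 (adjusted p = 0.000598), and every KO library was above every WT library. Dkk2, a secreted modulator of Wnt signalling (chr3:132085292-132180304), fell in WT from 7.23 and 8.37 to 2.8 and 3.05 FPKM, while KO read 1.18 and 1.23 FPKM without and 1.49 and 1.53 FPKM with IL-6, a difference of 1.35 ± 0.12 (adjusted p = 0.0017). Every KO library was below every WT library. With a pseudocount of 5 FPKM the difference was 0.9 for Col8a2 and 0.76 for Dkk2, both called.

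Sema3c, a secreted guidance factor of the semaphorin family (chr5:17574281-17730268), showed the contrast from near-equal starting levels. It stood at 89.8 and 89.4 FPKM in untreated WT and 95.3 and 85.5 FPKM in untreated KO, and with IL-6 at 41 and 38.1 FPKM in WT and 93.3 and 96.4 FPKM in KO. The difference was 1.23 ± 0.084 (adjusted p = 0.000598), and the WT libraries with IL-6 were the only ones to stand apart. Piezo2, a mechanically gated ion channel, fell in WT from 16.2 and 17.1 to 6.32 and 6.19 FPKM and read 2.54 and 3.48 and then 3.02 and 2.42 FPKM in KO, with overlapping KO groups and a difference of 1.18 ± 0.17 (adjusted p = 0.0103, or 0.0504 with no filter on low values). Of the 10 largest positive values, those of 1810049J17Rik, Gm14567, Gm43587 and Gm15867 rest on low or scattered levels. Between pseudocounts of 0.1 and 5 FPKM the value went from 6.31 to 1.48 for 1810049J17Rik, from 6.38 to 0.72 for Gm14567 and from 2.03 to 0.45 for Gm15867. 1810049J17Rik lost the call without any 1 WT library or replicate 2 of KO with IL-6 (adjusted p up to 0.0914), Gm14567 without any 1 library but the untreated KO ones (up to 0.101), and Gm43587 without any 1 library but replicate 2 of untreated WT (up to 0.128). Gm15867 lost it without replicate 1 of either WT group or replicate 2 of KO with IL-6 (up to 0.0652).

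**Figure D2:**
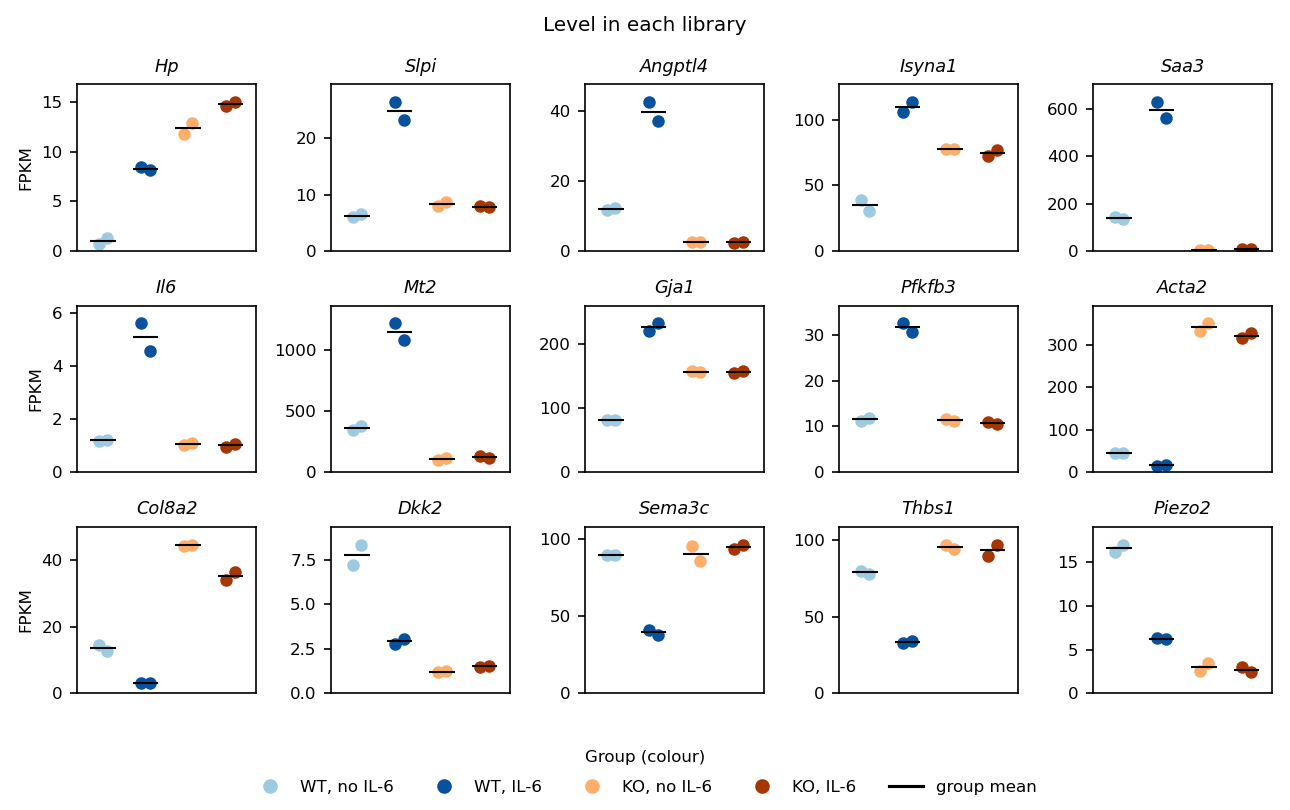
Level in FPKM (vertical axis, from 0, scaled for each gene) of 15 named genes in each of the 8 libraries, with groups in colour, 1 point a library and bars at the group means. Genes from Hp to Pfkfb3 rose in WT and those from Acta2 to Piezo2 fell in WT, while the means of the 2 KO groups are closer to each other in FPKM than those of the 2 WT groups for each gene.

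The receptor and kinase genes of the IL-6 pathway were among those whose responses differed. Of 30 genes of IL-6 receptors and JAK/STAT signalling tested, 10 had a called negative difference (33.3%) and 0 a positive one, with a median of -0.14 against 0.00 over all genes. Over all genes tested, 3.52% were called negative and 2.54% positive, and the shares given for the lists that follow stand beside these. Of genes expressed in both, 39.3% of those called upward within WT had a called difference, and 32.4% of those called downward. The contrast contains the WT change, so a list with many genes called within WT can hold more calls for that reason. List shares are over all members tested, and these latter shares only over genes called within WT. They are therefore not directly comparable. Il6ra, the IL-6 binding chain, stood at 9.31 and 9.22 FPKM in untreated WT and 1.48 and 1.59 FPKM in untreated KO, and with IL-6 at 8.5 and 8.08 FPKM in WT and 1.57 and 1.71 FPKM in KO, with no called difference between responses (0.20 ± 0.10, adjusted p = 0.281). Il6st, the gp130 chain, rose in WT from 84.7 and 89.5 to 130.0 and 127 FPKM, and in KO read 78.7 and 78.5 FPKM without and 84.5 and 87.8 FPKM with IL-6, a difference of -0.42 ± 0.058 (adjusted p = 0.00795). The KO cells thus carried a gp130 transcript level near that of untreated WT and a lower level of the IL-6 binding chain, and the part of these levels in the responses was not tested.

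Stat3 rose in WT from 41.4 and 40.1 to 63.8 and 62 FPKM and stood at 60.8 and 59.5 FPKM without and 69.5 and 68.8 FPKM with IL-6 in KO. Untreated KO was near the level of WT with IL-6, and the difference between responses was -0.42 ± 0.052 (adjusted p = 0.00542). Jak1, Jak3, Stat5a, Lifr, Osmr, Ptpn1, Ptpn2 and Socs3 were the other called members, with differences from -0.80 for Socs3 to -0.29 for Jak1. Among the members that were not called were Jak2 (-0.08 ± 0.081, adjusted p = 0.638) and Socs1 (0.08 ± 0.13, adjusted p = 0.787).

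Genes known as STAT3 targets had the largest median WT change of the lists. Of 35 tested, 29 rose and 1 fell in WT, and 21 had a called negative difference (60%) and 1, Ccnd1, a positive one, with a median difference of -0.58, a median WT change of 0.79 and a median KO change of 0.15 (0.00 for each over all genes). Of the called members, Serpina3n and Lrg1 were near 0 and Lcn2 low in KO. Socs3, Osmr, Il6st and Stat3 also count in the JAK/STAT list. Socs3, the feedback inhibitor of the pathway, rose in WT from 23.5 and 21.5 to 60.3 and 57.5 FPKM and read 16 and 16.9 FPKM without and 23.9 and 25.4 FPKM with IL-6 in KO. The KO libraries did not overlap between treatments, the KO change of 0.55 ± 0.06 was not called (adjusted p = 0.0774), and the difference between responses was -0.80 ± 0.085 (adjusted p = 0.00277). Osmr, the receptor chain for oncostatin M, rose in WT from 22 and 23.9 to 53.7 and 52.1 FPKM and in KO read 16.8 and 16.5 and then 23.5 and 23.9 FPKM, a difference of -0.69 ± 0.071 (adjusted p = 0.00247). Junb, an AP-1 transcription factor, rose in WT from 65.9 and 61.4 to 154 and 144 FPKM and read 48.8 and 52.3 and then 60.6 and 65.7 FPKM in KO, a difference of -0.90 ± 0.088 (adjusted p = 0.00207).

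Timp1, an inhibitor of matrix metalloproteinases (chrX:20870166-20874735), showed little scatter, and its KO libraries stood between the WT groups. It rose in WT from 113 and 115 to 339 and 335 FPKM and in KO read 155 and 160.2 FPKM without and 189.8 and 187 FPKM with IL-6. Its difference was -1.30 ± 0.048 (adjusted p = 9.04e-05), and its KO change of 0.25 ± 0.034 was not called (adjusted p = 0.128). Ptx3, a soluble pattern recognition protein, rose in WT from 129 and 141 to 351 and 345 FPKM, whereas in KO it read 80.2 and 78 and then 80.7 and 80.5 FPKM, a KO change of 0.03 ± 0.046 and a difference of -1.34 ± 0.066 (adjusted p = 0.000365). Ccnd1, which encodes cyclin D1, fell in WT from 19.2 and 18.4 to 6.7 and 7.47 FPKM and read 3.77 and 3.78 and then 3.04 and 2.93 FPKM in KO, a difference of 1.04 ± 0.095 (adjusted p = 0.00174).

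The share of the WT change seen in KO was not the same for all genes of these lists. For 24 genes of the STAT3 target and JAK/STAT lists that both genotypes expressed and that had a called WT change of at least 0.5, chosen after their values were seen, the KO change ran from 83.2% of the WT change for Cebpd to -37.6% for Vegfa, the angiogenic growth factor. Cebpd and Cebpb are C/EBP transcription factors of the acute phase response. Cebpd rose in WT from 30.9 and 28.6 to 55.3 and 51.8 FPKM and in KO from 6.48 and 6.92 to 11 and 11.8 FPKM, called within both genotypes, with changes of 0.83 ± 0.063 in WT and 0.69 ± 0.063 in KO. The difference of -0.14 ± 0.089 was not called (adjusted p = 0.424), and neither was that of Cebpb (-0.18 ± 0.085, adjusted p = 0.292), whose KO change was 74.1% of the WT change. The shares were 55.3% for Il4ra, the interleukin-4 receptor chain, 41.5% for Osmr, 41.1% for Socs3 and 32.1% for Stat3. At the lower end stood Timp1 at 16.4%, Hp at 10.9%, Il13ra1, an interleukin-13 receptor chain, at 9.3%, and Ptx3 at 2.0%. These shares are ratios of fitted log2 changes and carry the error of both. Members near 0 or low in KO, such as Serpina3n and Lcn2, are outside these 24.

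**Figure D3:**
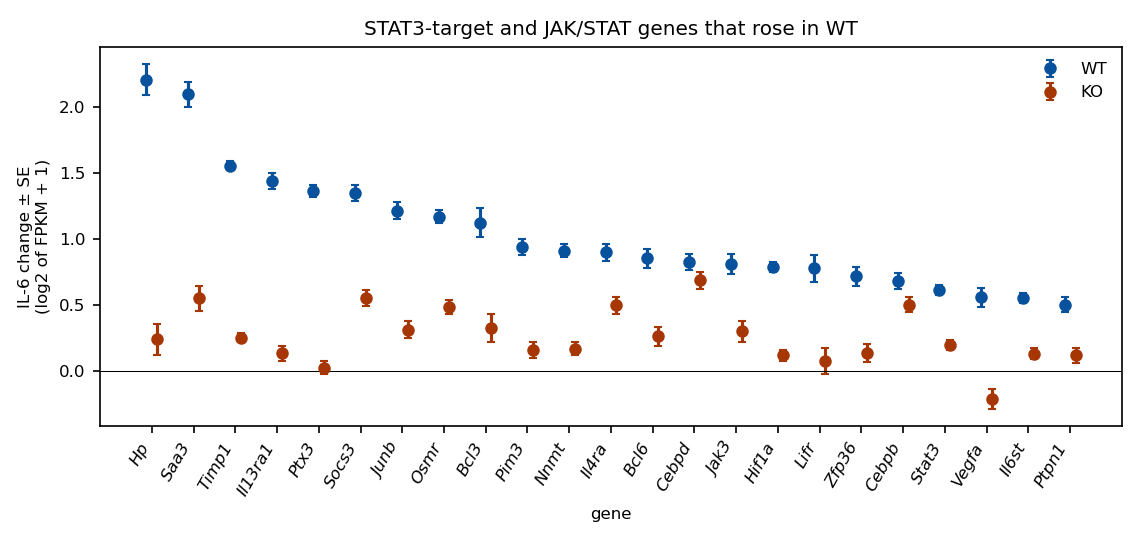
IL-6 change (vertical axis, log2 of FPKM + 1, with its standard error from the fit) in WT and KO for genes of the STAT3 target and JAK/STAT lists that both genotypes expressed and that rose by at least 0.5 in WT, ordered by the WT change. The KO points lie below the WT points for each gene, closest for Cebpd and Cebpb, and below 0 only for Vegfa.

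Promoter sequence was looked at for the genes that moved together. Of the 89 genes named by rule, 59 matched a RefSeq promoter window (GRCm38.p6), which runs from 250 bases before a transcription start to 50 bases after it. The motif TTCNNNGAA, the letters bound by STAT dimers, reads the same on both strands. It was found in 9.9% of 424 windows of genes expressed in both with a negative call, in 4.7% of 277 windows of those with a positive call, in 6.8% of the 12624 windows of all tested genes and in 8.3% of all 32851 windows. TGANTCA, the AP-1 letters searched on both strands, was found in 6.1%, 7.2%, 5.0% and 7.8% of these. A match is a description of letters, not a site. The 4 called protein-coding genes named by rule and expressed in both whose window holds TTCNNNGAA are Socs3, Sod2, Zfp36 and Ebp, and the 250 bases before their start are shown 5′ to 3′ with the match in capitals.
Socs3, chr11:117969367-117969616, minus strand: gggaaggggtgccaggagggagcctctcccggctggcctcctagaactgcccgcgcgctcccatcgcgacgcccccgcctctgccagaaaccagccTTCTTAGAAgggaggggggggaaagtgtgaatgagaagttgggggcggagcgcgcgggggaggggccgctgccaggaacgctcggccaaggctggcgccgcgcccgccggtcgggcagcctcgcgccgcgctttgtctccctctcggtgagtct
Sod2, chr17:13007589-13007838, plus strand: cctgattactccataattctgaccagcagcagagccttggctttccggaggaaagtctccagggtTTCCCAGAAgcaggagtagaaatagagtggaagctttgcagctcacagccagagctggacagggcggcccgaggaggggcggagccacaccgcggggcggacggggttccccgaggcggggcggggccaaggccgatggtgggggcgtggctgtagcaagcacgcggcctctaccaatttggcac
Zfp36, chr7:28379229-28379478, minus strand: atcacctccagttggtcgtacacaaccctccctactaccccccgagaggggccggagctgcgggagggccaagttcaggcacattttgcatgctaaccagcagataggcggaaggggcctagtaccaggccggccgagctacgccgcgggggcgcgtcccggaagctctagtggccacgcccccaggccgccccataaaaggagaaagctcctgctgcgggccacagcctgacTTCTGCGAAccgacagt
Ebp, chrX:8193513-8193762, minus strand: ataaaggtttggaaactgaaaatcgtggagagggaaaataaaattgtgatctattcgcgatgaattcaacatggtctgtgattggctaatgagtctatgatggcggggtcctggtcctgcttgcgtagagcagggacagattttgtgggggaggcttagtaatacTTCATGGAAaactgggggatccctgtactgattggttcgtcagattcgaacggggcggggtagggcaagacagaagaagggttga
The match begins at -154 in Socs3, -185 in Sod2, -17 in Zfp36 and -85 in Ebp, counted from -1 at the base before the start. Sod2, the mitochondrial superoxide dismutase, rose in WT from 61.5 and 56.3 to 119 and 123 FPKM and read 28.8 and 29 FPKM without and 30.7 and 31.6 FPKM with IL-6 in KO, a difference of -0.92 ± 0.069 (adjusted p = 0.000843). Zfp36, which encodes the mRNA-destabilising protein tristetraprolin, rose in WT from 9.23 and 8.58 to 15.8 and 14.7 FPKM and read 9.71 and 10.8 and then 11.1 and 11.6 FPKM in KO. Its difference of -0.58 ± 0.10 (adjusted p = 0.0183) lost the call without replicate 2 of untreated WT or of untreated KO, replicate 1 of WT with IL-6 or either KO library with IL-6, at adjusted p up to 0.0754. Ebp, a sterol isomerase, had a difference of -0.36 ± 0.063 (adjusted p = 0.02) that held without replicate 1 of untreated WT or of KO with IL-6 and lost the call without any 1 of the other libraries, at adjusted p up to 0.0797.

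Acute phase and complement genes gave 9 called negative differences (47.4%) and 0 positive among 19 tested, with a median of -0.42, a median WT change of 0.59 and a median KO change of 0.21. Of the 9, Orm1, Serpina3n and Kng1 were near 0 and Lcn2 low in KO. Serpina3n, Hp, Saa3 and Lcn2 also count among the called STAT3 targets. Lcn2 counts again under iron handling and reported Arid5a targets. Saa3, a serum amyloid A protein made outside the liver (chr7:46711998-46715700), rose in WT from 143 and 134 to 629 and 560.3 FPKM and read 5.91 and 4.83 FPKM without and 7.81 and 8.8 FPKM with IL-6 in KO. All KO libraries were far below all WT libraries, the KO groups did not overlap, and the difference was -1.54 ± 0.14 (adjusted p = 0.00157). Lcn2, the siderophore-binding lipocalin, reached 229 and 201 FPKM in WT with IL-6 from 56.8 and 58.8 FPKM without, but stood below 1 FPKM in every KO library, at 0.184 and 0.198 FPKM and then 0.418 and 0.851 FPKM. Its difference of -1.43 ± 0.17 (adjusted p = 0.00459) depended on the pseudocount and was -0.62 (adjusted p = 0.368) with a pseudocount of 0.1 FPKM. Among the other called members, chosen after their values were seen, the complement regulator Serping1 averaged 71.2 and 161 FPKM in WT and 20.3 and 23.7 FPKM in KO without and with IL-6, and complement C4b 3.26, 9.72, 4.09 and 5.85 FPKM in the same order.

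Iron and metal handling had 11 called negative differences (61.1%), those of Lcn2 and Steap3 with low KO levels, and 0 positive among 18 tested genes, a median of -0.54, and medians of 0.60 in WT and 0.06 in KO. Mt2, a metal-binding metallothionein (chr8:94172664-94173568), rose in WT from 344 and 379 to 1215 and 1082 FPKM and read 102 and 118 FPKM without and 131 and 118 FPKM with IL-6 in KO, a difference of -1.48 ± 0.13 (adjusted p = 0.00164). The ferritin heavy chain gene Fth1, whose product stores iron, rose in WT from 2650.0 and 2703 to 5879 and 6002 FPKM and in KO read 977 and 1023 and then 1121 and 1099.8 FPKM, a difference of -1.0 ± 0.056 (adjusted p = 0.000365) that was -0.63 after quantile normalization. Every WT library lay above every KO library for both genes. Steap1, of a family of metalloreductases, rose in WT from 34.5 and 33.4 to 91.7 and 92 FPKM against 13.9 and 15.4 and then 16 and 15.1 FPKM in KO, where the groups overlapped (difference -1.33 ± 0.08, adjusted p = 0.000479).

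Cytokines and chemokines gave 11 called negative differences (44.0%) and 1 positive, Il34 (4.0%), among 25 tested, with a median of -0.40. Of the 25, 5 were near 0 in KO, and the calls of Cxcl1, Cxcl2, Cxcl3 and Il34 among them restate the WT change. Ccl20 and Tnfsf11, also called, stood below 1 FPKM in every KO library. A pseudocount of 0.1 FPKM gave 7 negative and 0 positive calls. Il6 itself (chr5:30013114-30019981) rose in WT from 1.19 and 1.22 to 5.61 and 4.59 FPKM, while KO read 1.04 and 1.11 FPKM without and 0.965 and 1.07 FPKM with IL-6. The untreated groups lay close together, with KO slightly lower, the KO groups overlapped, and the difference was -1.5 ± 0.14 (adjusted p = 0.00186), or -0.71 with a pseudocount of 5 FPKM. Cxcl12, a chemokine of stromal cells, rose in WT from 178 and 172 to 263 and 259 FPKM and read 581 and 581 and then 576 and 579 FPKM in KO, above every WT library (difference -0.58 ± 0.046, adjusted p = 0.0011). The neutrophil chemokine gene Cxcl2 rose in WT from 20.2 and 20.6 to 42.7 and 41.9 FPKM and was near 0 in KO, so its difference (-0.96, or -0.68 with an adjusted p of 0.38 at a pseudocount of 0.1 FPKM) restates the WT change. Among 20 NF-kappaB targets, 5 were called negative (25.0%) and 1 positive (5.0%), the positive being the adhesion molecule Vcam1 (0.57 ± 0.07, adjusted p = 0.00484), which fell in WT from 48.6 and 52.9 to 37.5 and 35.7 FPKM and read 109.9 and 106 and then 117 and 116 FPKM in KO.

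Glycolysis and hypoxia genes were called negative in 12 of 32 cases (37.5%) and positive in 0, with a median of -0.28, a WT median of 0.26 and a KO median of -0.05. Quantile normalization gave 6 negative calls. Pfkfb3, the enzyme that makes the glycolytic activator fructose 2,6-bisphosphate, had overlapping untreated levels (chr2:11471433-11554077). It read 11.3 and 11.8 FPKM in untreated WT and 11.7 and 11.2 FPKM in untreated KO, then 32.5 and 30.7 FPKM in WT and 11 and 10.6 FPKM in KO with IL-6, a difference of -1.46 ± 0.076 (adjusted p = 0.000365). Slc16a3, the lactate exporter MCT4, rose in WT from 47.3 and 48.1 to 84.1 and 82.6 FPKM and read 110.5 and 121 and then 108 and 109.6 FPKM in KO (difference -0.88 ± 0.065, adjusted p = 0.000843). Aldoa, a glycolytic aldolase, rose in WT from 396 and 397 to 505 and 512 FPKM and read 454 and 486 and then 450.1 and 446 FPKM in KO, with a smaller difference of -0.43 ± 0.056 (adjusted p = 0.00658).

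Growth factors and insulin-like growth factor (IGF) genes were mixed, with 9 negative (23.7%) and 3 positive (7.9%) calls among 38. Of the called members, Igfbp5, Areg and Hgf were near 0 and Ereg low in KO. Igfbp4, an IGF-binding protein, rose in WT from 14.7 and 15.4 to 35.8 and 31.8 FPKM and read 439 and 462 and then 393 and 410.5 FPKM in KO, where every library exceeded every WT library (difference -1.28 ± 0.085, adjusted p = 0.000598). Igfbp3 was the only gene called within both genotypes and in the difference. It rose in WT from 13.5 and 12.6 to 40.1 and 37.4 FPKM and in KO from 50.8 and 51.3 to 92.3 and 95 FPKM. On the log2 scale its KO rise was smaller (0.86 ± 0.05 against 1.5 ± 0.05; difference -0.64 ± 0.071, adjusted p = 0.00322), while in FPKM its KO rise was larger, by 16.9 FPKM. The sign depended on the scale in this way for 10 of the 703 called genes expressed in both, and in all 10 the untreated KO level was over 2 times that of WT. Spp1, the secreted phosphoprotein osteopontin, rose in WT from 279 and 284 to 385 and 380.0 FPKM and in KO from 73.4 and 74.1 to 113 and 108 FPKM, with changes of 0.44 ± 0.034 and 0.58 ± 0.034 and no called difference (0.14 ± 0.048, adjusted p = 0.158).

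Proteases and their inhibitors were called negative in 10 of 25 cases (40%), with Adam8 near 0 in KO, and positive in 1 (4.0%). Mmp13, a collagenase, rose in WT from 1.76 and 1.94 to 7.52 and 6.62 FPKM and read 13.6 and 12 FPKM without and 16.3 and 15.6 FPKM with IL-6 in KO, above every WT library (difference -1.20 ± 0.12, adjusted p = 0.00232, or -0.58 with a pseudocount of 5 FPKM). Plaur, the urokinase receptor, rose in WT from 17.8 and 18 to 24.2 and 25 FPKM and read 27.5 and 27.5 and then 25.2 and 24.4 FPKM in KO (difference -0.58 ± 0.059, adjusted p = 0.00242). Of 26 glutathione and antioxidant genes, 7 were called negative (26.9%), with Gstt4 and Nos2 near 0 in KO, and 2 positive (7.7%). Gsta4, a glutathione transferase for lipid aldehydes and a positive call, fell in WT from 19.5 and 17.5 to 9.42 and 9.87 FPKM and read 45.3 and 45.3 and then 40.4 and 40.4 FPKM in KO (difference 0.71 ± 0.079, adjusted p = 0.00327).

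The contractile and myofibroblast list was the one with the most positive calls for its size among the lists tested. Of 16 genes, 7 were called positive (43.8%) and 1 negative (6.2%), with a median of 0.32, a WT median of -0.31 and a KO median of -0.03. With libraries scaled to an equal FPKM total, 11 were called positive. Acta2, the smooth muscle actin of myofibroblasts (chr19:34241090-34255590), fell in WT from 46.1 and 44.6 to 15.7 and 17.1 FPKM and read 332 and 351 FPKM without and 315 and 329 FPKM with IL-6 in KO. Every KO library exceeded every WT library, and the difference was 1.33 ± 0.074 (adjusted p = 0.000365). Tagln, the actin-binding protein transgelin, fell in WT from 58.3 and 59.7 to 25.8 and 29.1 FPKM and read 248 and 256 and then 237 and 256 FPKM in KO, with overlapping KO groups (difference 1.05 ± 0.087, adjusted p = 0.00125). Ccn2, a matricellular protein formerly called connective tissue growth factor, fell in WT from 24.8 and 22.9 to 9.96 and 11.3 FPKM and read 93.8 and 88.8 and then 81.7 and 84.2 FPKM in KO (difference 0.96 ± 0.094, adjusted p = 0.00207).

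Matrix genes went in both directions, with 6 positive (14.0%) and 5 negative (11.6%) calls among 43. Thbs1, the adhesive glycoprotein thrombospondin 1, fell in WT from 79.7 and 77.8 to 32.9 and 34.3 FPKM and read 96.9 and 93.8 and then 89.6 and 96.7 FPKM in KO, a difference of 1.17 ± 0.067 (adjusted p = 0.000365). Col1a2, a chain of type I collagen, fell in WT from 530.0 and 518 to 356 and 337 FPKM, while KO began at overlapping levels and read 515 and 524 and then 481 and 508 FPKM (difference 0.53 ± 0.06, adjusted p = 0.00375). Dcn, the collagen-binding proteoglycan decorin, rose in WT from 157 and 175 to 465 and 394 FPKM and read 783 and 804 and then 815 and 806 FPKM in KO, above every WT library, a difference of -1.33 ± 0.11 (adjusted p = 0.00137). Fbln2, the matrix protein fibulin 2, rose in WT from 72.5 and 72.4 to 117 and 118 FPKM against 427 and 448 and then 439 and 445 FPKM in KO (difference -0.67 ± 0.05, adjusted p = 0.000843).

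The TGF-beta, BMP, Wnt and hedgehog list held 8 positive (19.5%) and 5 negative (12.2%) calls among 41, of which 5 were near 0 in KO and 5 near 0 in WT. The call of Gdf7 is the one of the 13 that came from these 10. Tgfb3, a TGF-beta ligand, fell in WT from 39.9 and 38.3 to 24.1 and 24.2 FPKM and read 55 and 55.3 and then 54 and 53.3 FPKM in KO (difference 0.64 ± 0.053, adjusted p = 0.00125). Of 24 p53 targets, 4 were called positive (16.7%) and 0 negative. Plk2, a polo-like kinase, fell in WT from 28.8 and 30.3 to 15.7 and 15.8 FPKM and read 35.2 and 33.1 and then 30.5 and 32.9 FPKM in KO (difference 0.76 ± 0.077, adjusted p = 0.00238). Perp, a membrane protein of desmosomes, fell in WT from 31.9 and 32.1 to 18.3 and 18.4 FPKM and stood at 2.98 and 3.42 and then 2.89 and 2.79 FPKM in KO (difference 0.64 ± 0.09, adjusted p = 0.0087).

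**Figure D4:**
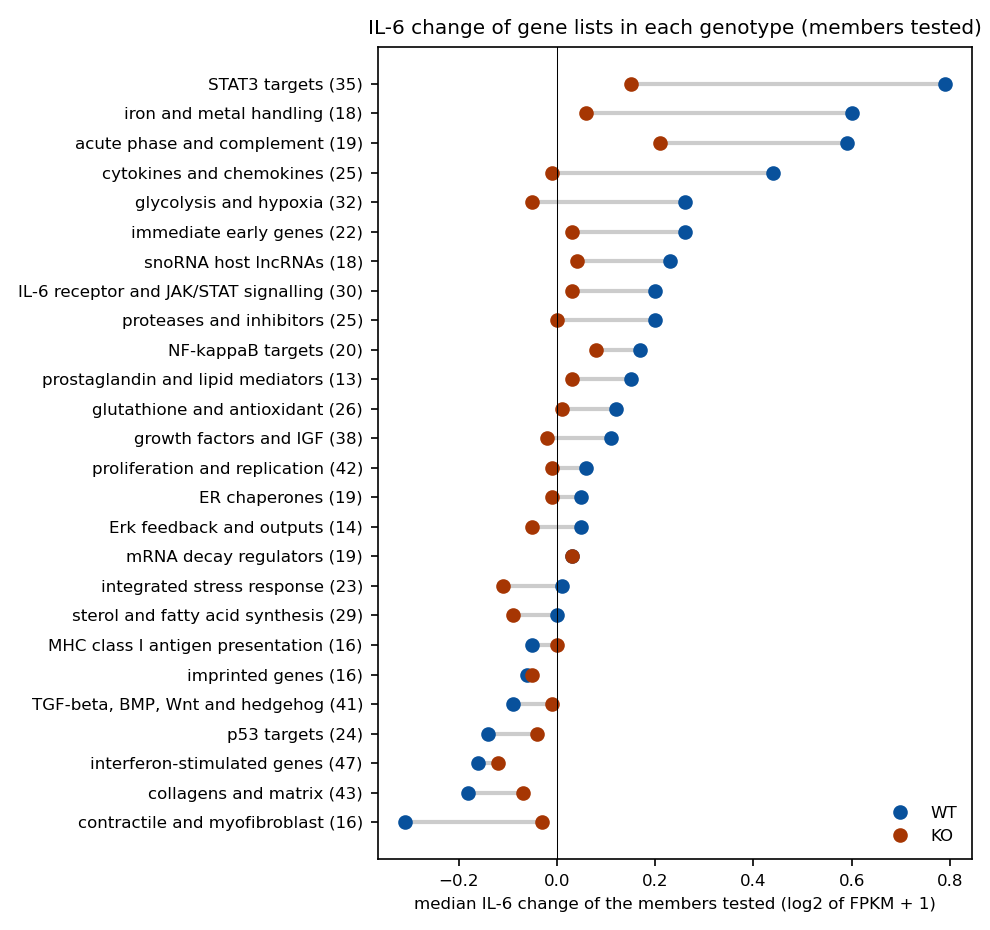
Median IL-6 change (horizontal axis, log2 of FPKM + 1) of the tested members of each gene list in WT and in KO, with the number tested in brackets, for lists of at least 13 tested genes other than cell type markers. The STAT3 targets are farthest to the right in WT at 0.79, against 0.15 in KO, and the contractile list farthest to the left at -0.31, against -0.03 in KO.

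Interferon-stimulated genes had 1 call among 47 (2.1%), the membrane protein Ifitm2 (-0.49 ± 0.052, adjusted p = 0.00264), with a median difference of 0.02. No gene was called by limma among 16 of MHC class I antigen presentation, 42 of proliferation and replication, 19 ER chaperones and 18 snoRNA host lncRNAs, of which 3, 6, 3 and 5 reached an unadjusted p below 0.05. The snoRNA hosts had a median WT change of 0.23, with 9 called within WT, and a median KO change of 0.04.

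In the integrated stress response list, 5 of 23 were called negative (21.7%) and 1 positive (4.3%). Among the negative calls, those of Cth (-0.71) and Ddit4 (-0.54) were lost when some single libraries were left out. Atf4 (-0.28) was called within neither genotype. Asns, asparagine synthetase, rose in WT from 10.8 and 10.1 to 13.8 and 13.5 FPKM and read 53.1 and 53.1 and then 49.9 and 48.9 FPKM in KO (difference -0.46 ± 0.065, adjusted p = 0.00877). Of 22 immediate early genes 3 were called negative (13.6%), Junb, Ier3 and Jun, and of 19 mRNA decay regulators 2 (10.5%), Zfp36 and Zfp36l1. Jun (-0.41 ± 0.092, adjusted p = 0.0458) lost the call without each of the 8 libraries in turn, at adjusted p of 0.0546 to 0.136. Zfp36l1 (-0.45 ± 0.072, adjusted p = 0.014) lost it without replicate 2 of either untreated group or replicate 1 of KO with IL-6, at adjusted p up to 0.0612. Of 13 genes of prostaglandins and lipid mediators 3 were called negative (23.1%) and Hpgd positive (7.7%), with Ptges, Ptgfr and Hpgd near 0 in KO and 0 negative at a pseudocount of 0.1 FPKM.

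Transcripts reported as Arid5a targets, a list chosen from general knowledge, gave 5 negative calls (50%) and 1 positive (10%) among 10 tested, with a median difference of -0.36, a WT median of 0.56 and a KO median of 0.17. The negative calls were Il6, Lcn2, Stat3 and the chemokine genes Cxcl1 and Ccl2, and 3 members were called negative with a pseudocount of 0.1 FPKM. Cxcl1 rose in WT from 116 and 115 to 178 and 176 FPKM and read 0.0318 and 0.131 and then 0.266 and 0.138 FPKM in KO, near 0 throughout, so its difference (-0.46 ± 0.10, adjusted p = 0.041) restates the WT change. Ccl2 rose in WT from 752 and 771 to 969 and 894 FPKM and read 88.4 and 81.4 and then 75.8 and 75.5 FPKM in KO (difference -0.45 ± 0.075, adjusted p = 0.016). The positive call was Vim, the intermediate filament vimentin, which fell in WT from 2288 and 2184 to 1765 and 1746 FPKM and read 1022 and 1088 and then 1046 and 1021 FPKM in KO (difference 0.32 ± 0.063, adjusted p = 0.0317), and it was not called after quantile normalization.

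Genes that the study names gave the following. The response of Arid5a was 0.81 ± 0.10 in WT and 0.38 ± 0.10 in KO, and the difference of -0.43 ± 0.15 was not called (adjusted p = 0.148). AU021063, a long noncoding RNA, did not reach 1 FPKM in 2 libraries. It read 0.411 and 0.333 FPKM in untreated WT and 1.45 and 0.698 FPKM in WT with IL-6, and in KO it was listed at 0 in 3 libraries and at 0.126 FPKM in 1 with IL-6. In a fit with no filter, over 27454 genes, its difference was -0.49 ± 0.24 (SE; limma adjusted p = 0.456). Trib3, a pseudokinase, stood at 4.32 and 4.55 FPKM and then 4.22 and 4.45 FPKM in WT and at 16.7 and 18.5 FPKM and then 13.9 and 15.2 FPKM in KO, a difference of -0.23 ± 0.10 (adjusted p = 0.252). Of the Mek genes, Map2k1 had a difference of -0.22 ± 0.053 (adjusted p = 0.0588) and Map2k2 of -0.14 ± 0.13 (adjusted p = 0.6). Mapk3, which encodes a kinase of the Erk pathway, gave -0.02 ± 0.064 (adjusted p = 0.873), and its sign turned with quantile normalization and with equal total FPKM. Dusp6, a phosphatase induced by Erk signalling, was called negative (-0.82 ± 0.12, adjusted p = 0.00881): it rose in WT from 4.75 and 5.65 to 10.1 and 9.28 FPKM and read 30.3 and 28 and then 28.9 and 28.4 FPKM in KO. Dusp6 and Ccnd1 were the 2 called of 14 tested genes of Erk feedback and outputs, Dusp6 negative (7.1%) and Ccnd1 positive (7.1%). The median difference of this list was -0.07. Over all genes tested, 3.52% were called negative and 2.54% positive.

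Genes near 0 in KO are given apart, since their difference is close to the WT change with its sign turned. Of the 95 called, 64 rose and 31 fell in WT. Serpina3n, a secreted serine protease inhibitor of the acute phase (chr12:104406729-104414329), rose in WT from 3.35 and 3.19 to 25.4 and 23.3 FPKM and stayed below 0.2 FPKM in all KO libraries (difference -2.51 ± 0.11, adjusted p = 0.000244). The annotated pseudogene Serpina3e-ps (chr12:104189517-104192926) of the same cluster fell in WT from 11.4 and 12.7 to 1.3 and 1.07 FPKM (difference 2.6 ± 0.13, adjusted p = 0.000365, or 1.47 with a pseudocount of 5 FPKM). The Serpina3 copies are similar in sequence, so the split of reads between them is uncertain.

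Kng1, the precursor of kinins, rose in WT from 1.56 and 1.84 to 13 and 11.4 FPKM, Fabp4, a fatty acid carrier of adipocytes, from 6.44 and 7.45 to 28.9 and 32.7 FPKM, and U90926 from 1.66 and 1.54 to 12.1 and 11.8 FPKM. All 3 stayed below 0.5 FPKM in every KO library, and their differences were -2.25, -2.04 and -2.32. Gstt4, a glutathione transferase listed at 0 in all 4 KO libraries, rose in WT from 0.854 and 1.71 to 9.01 and 8.37 FPKM. In the other direction, Hpgd, the enzyme that inactivates prostaglandins, fell in WT from 5.78 and 6.09 to 0.641 and 0.647 FPKM (2.06, adjusted p = 0.000756). With a pseudocount of 5 FPKM the values were -1.35 for Kng1, -1.36 for U90926, -1.13 for Gstt4 and 0.95 for Hpgd. Ereg, the growth factor epiregulin, was low without meeting the limit, at 0.557 and 0.572 FPKM and then 0.543 and 0.549 FPKM in KO, and rose in WT from 5.04 and 5.61 to 17.4 and 16.5 FPKM (difference -1.52 ± 0.11, adjusted p = 0.000682).

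The opposite class, near 0 in WT, held few calls. The 3 called were Tnni1, Tns4 and Gm27252, and none of the 490 genes was called within KO, while 59 reached an unadjusted p below 0.05 there. Tnni1, a troponin of slow muscle, read 10.3 and 9.06 FPKM without and 6.36 and 6.43 FPKM with IL-6 in KO and below 0.1 FPKM in every WT library. Its difference of -0.56 ± 0.12 (adjusted p = 0.0364) lost the call without each of the 8 libraries in turn, at adjusted p of 0.0546 to 0.116, and was -0.37 with a pseudocount of 5 FPKM.

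**Figure D5:**
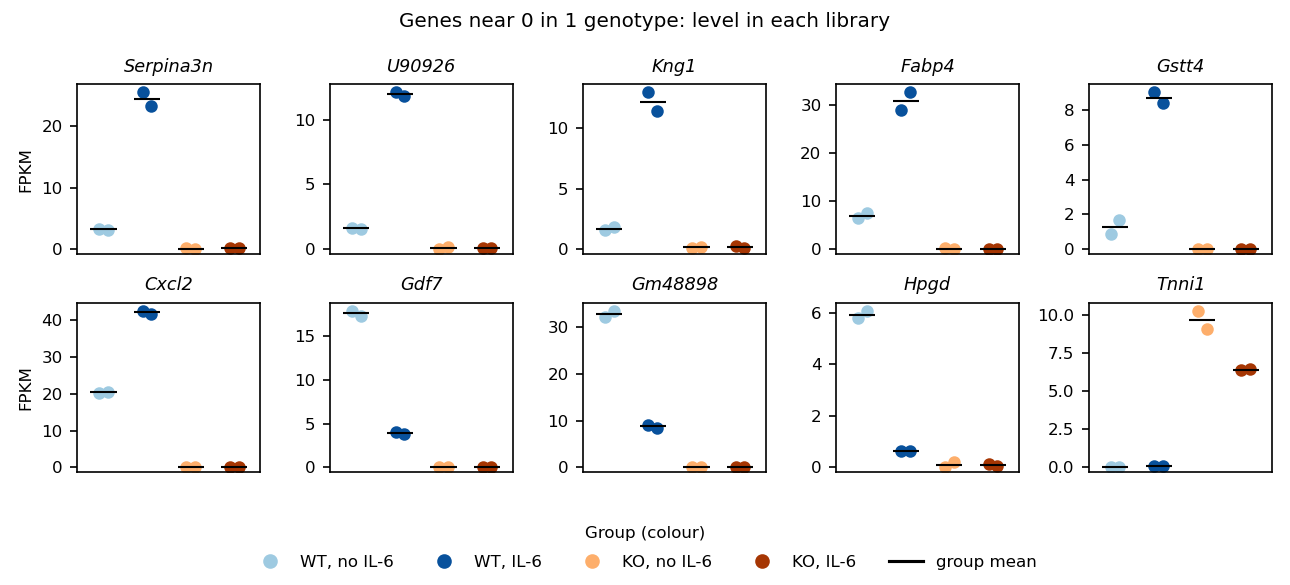
Level in FPKM (vertical axis, scaled for each gene) in each of the 8 libraries, with groups in colour, 1 point a library and bars at group means, for 10 genes near 0 in 1 genotype. In 9 of the panels the KO points lie near 0 and the 2 WT groups stand apart, and in the Tnni1 panel the WT points lie near 0.

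Long noncoding RNAs, the aim of the study, were called in 24 of 671 tested (3.58%), against 6.06% of all genes tested. Of the 24, 17 were positive and 7 negative, while 2.54% of all genes tested were called positive and 3.52% negative. Gm48898, a lincRNA at chr12:8291024-8293694 on the minus strand, fell in WT from 32.1 and 33.4 to 8.99 and 8.5 FPKM and was below 0.05 FPKM in every KO library (difference 1.81 ± 0.10, adjusted p = 0.000365). It lies beyond the 3′ end of Gdf7, a BMP family ligand on the same strand (chr12:8297918-8301954), and Gdf7 also fell in WT, from 17.9 and 17.2 to 4.06 and 3.83 FPKM, and was below 0.05 FPKM in KO (difference 1.91 ± 0.10, adjusted p = 0.000365). Gm6093, a lincRNA at chr13:33562486-33569317, rose in WT from 3.25 and 3.86 to 12.3 and 11.6 FPKM and stayed below 0.3 FPKM in KO (difference -1.42 ± 0.13, adjusted p = 0.00158).

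Gm13293, a lincRNA at chr2:11339488-11344111 on the plus strand, was the called negative lncRNA named by rule that both genotypes expressed. It rose in WT from 0.481 and 0.385 to 3.18 and 2.4 FPKM and read 2.62 and 2.55 FPKM without and 2.93 and 2.06 FPKM with IL-6 in KO, where the groups overlapped (difference -1.44 ± 0.20, adjusted p = 0.00894), a value of -2.5 with a pseudocount of 0.1 FPKM and -0.54 with 5 FPKM. C430049B03Rik at chrX:53055046-53057190, the host transcript of a microRNA cluster, fell in WT from 4.86 and 4.52 to 1.92 and 2.9 FPKM and read 50.2 and 46.9 and then 50.3 and 50.9 FPKM in KO. Its difference of 0.81 ± 0.17 (adjusted p = 0.0393) lost the call without any 1 library but the WT ones with IL-6, at adjusted p up to 0.127. The lincRNA 9330175E14Rik had a difference of 0.87 ± 0.18 (adjusted p = 0.0355) and lost the call without any 1 library but replicate 1 of WT with IL-6, at adjusted p up to 0.117. With a pseudocount of 5 FPKM the values were 0.45 for C430049B03Rik and 0.47 for 9330175E14Rik. The antisense transcript Gm15867 had a difference of 1.17 ± 0.19 (adjusted p = 0.0156). Gm37055, a short unclassified transcript, is listed at 0 in 6 libraries and at 4.58 and 10.2 FPKM in WT with IL-6. Its fitted value of -2.98 was -6.11 with a pseudocount of 0.1 FPKM and -1.27 with 5 FPKM, and is no measure of a fold. Gm13415 rose in WT from 2.32 and 2.2 to 5.02 and 5 FPKM and was near 0 in KO, with a difference of -0.85 that was not called with a pseudocount of 0.1 FPKM (adjusted p = 0.267) and was -0.46 with 5 FPKM. The library kit keeps strand, but whether the counting used it is not given in the sources used here, so reads of an antisense transcript and its partner may not be told apart.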

How the data were processed

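Per the labels' protocols, libraries of 8 MEF samples were made from total RNA using a kit that keeps strand. The authors deposited a table of FPKM per transcript for each library. The submitters' processing notes name HISAT2, Cufflinks 2.2.1 and GRCm38.p6. No read counts were used, so no counting interval is given and the precision of low levels rests on the replicate spread alone.

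From these, 142869 transcripts were summed to 55358 genes by name, 13693 of them at 1 FPKM or more in at least 2 libraries. log2(FPKM + 1) was fitted with limma 3.58.1 in R 4.3.3 (group-means design, 8 libraries, 4 residual degrees of freedom, moderated variances with an intensity trend). Fold changes on this scale understate the change of low genes. Gene positions are from GENCODE M21 (GRCm38). The fit was tested on simulated data.

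Genes were named by rule: called genes with non-overlapping library differences, the 10 largest each way among genes expressed in both, the 4 largest each way near 0 and among lncRNAs, up to 3 called members of each of 39 gene lists with the smallest p, and the study's genes. Other names were chosen after their values were seen. Members and lists were chosen with earlier results of these data known. Lists are described by counts and medians alone. Some lists share members, so their counts are not independent. Alternatives were pseudocounts of 0.1 and 5 FPKM, no filter, a filter at 5 FPKM, 3 scalings, no trend, a replicate block, transcripts, and leaving out each library.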

Additional observations from a re-analysis of the deposited data

Results flagged for a closer look

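A difference between the IL-6 changes of the genotypes, tested by itself with limma, was called for 830 genes, and the called genes named by rule are listed here. For 95 called genes near 0 in KO and 3 near 0 in WT, 1 genotype has no response to compare, and the value restates the change of the other. Values are the KO change minus the WT change on the log2(FPKM + 1) scale. The alternatives run for named genes were the fits of genes, without the fit of transcripts.

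Among genes named by rule and expressed in both genotypes, those whose call held under every alternative run were, on the negative side, Hp at -1.96, Slpi at -1.89, Angptl4 at -1.70, Isyna1 at -1.69, Saa3 at -1.54, Il6 at -1.5, Mt2 at -1.48, Gja1 at -1.47, Pfkfb3 at -1.46, Gm13293 at -1.44, Ptx3 at -1.34, Dcn at -1.33, Steap1 at -1.33 and Timp1 at -1.30. Smaller negative values of this kind were found for Igfbp4 at -1.28, Mmp13 at -1.20, Fth1 at -1.0, Sod2 at -0.92, Junb at -0.90, Slc16a3 at -0.88, Dusp6 at -0.82, Socs3 at -0.80, Osmr at -0.69, Fbln2 at -0.67, Cxcl12 at -0.58, Plaur at -0.58, Ier3 at -0.57 and Cd14 at -0.56. The smallest were those of Ifitm2 at -0.49, Asns at -0.46, Nfkb1 at -0.43, Aldoa at -0.43 and Stat3 at -0.42. Positive differences that held in the same way were those of Col8a2 at 1.5, Dkk2 at 1.35, Acta2 at 1.33, Sema3c at 1.23, Thbs1 at 1.17, Tagln at 1.05, Ccnd1 at 1.04, Ccn2 at 0.96, Plk2 at 0.76, Gsta4 at 0.71, Perp at 0.64, Tgfb3 at 0.64, Vcam1 at 0.57 and Col1a2 at 0.53. Genes near 0 or low in 1 genotype whose call held were, on the negative side, Serpina3n at -2.51, U90926 at -2.32, Kng1 at -2.25, Gstt4 at -2.11, Fabp4 at -2.04, Ereg at -1.52 and Gm6093 at -1.42, and on the positive side Serpina3e-ps at 2.6, Hpgd at 2.06, Gdf7 at 1.91 and Gm48898 at 1.81. Calls lost under at least 1 alternative were, on the negative side, Lcn2 at -1.43, Cxcl2 at -0.96, Ptgfr at -0.95, Gm13415 at -0.85, Ptges at -0.75, Cth at -0.71, Zfp36 at -0.58, Tnni1 at -0.56, Ddit4 at -0.54, Fabp5 at -0.49, Zfp36l1 at -0.45, Jun at -0.41 and Ebp at -0.36. On the positive side they were Gm43587 at 1.41, Piezo2 at 1.18, Gm15867 at 1.17, 9330175E14Rik at 0.87, C430049B03Rik at 0.81, Twist1 at 0.46 and Ccng1 at 0.38. The fitted values of Gm37055 at -2.98, Gm22513 at 3.06, Gm25777 at -5.87, Gm14567 at 2.29 and 1810049J17Rik at 3.54 are set by the pseudocount and are no measure of a fold. Between pseudocounts of 0.1 and 5 FPKM they went from -6.11 to -1.27, from 6.2 to 1.33, from -10.7 to -2.95, from 6.38 to 0.72 and from 6.31 to 1.48 in the same order. The call of Gm37055 held under every alternative run, and those of the other 4 were lost under at least 1. The spread of a gene is pooled over the 4 groups, so the groups of Gm37055 at 0 lowered its SE, and its call is uncertain too. Groups of 2 libraries are too small to look for a library that stands apart within its group.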

How the results depend on the processing

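For the difference between the IL-6 responses, the count of 830 stayed within 1.5 times under both other pseudocounts (705 at 0.1 FPKM and 906 at 5 FPKM), the filter at 5 FPKM (787), quantile normalization (779), equal total FPKM (866), median ratios (855) and no intensity trend (704). It fell to 521 with no filter, where 27454 genes were tested, and to 248 for transcripts, and ran from 383 to 523 without each library in turn, where 1 group is left with 1 library assumed to vary like the others. Of the 830 genes, 361 to 467 were called again without a library and 422 with no filter. With equal total FPKM 55.1% of the calls were positive, against 41.9% as reported. For the IL-6 response of WT, the count of 2150 became 948 for transcripts and 1165 to 1774 without a library. For the IL-6 response of KO, the count of 3 became 7 with no filter, 5 with the filter at 5 FPKM and 0 to 4 without a library. Of 83 called genes named by rule, 59 kept their call under every alternative run and 24 lost it under at least 1, 19 of these without a library. The cause was not tested. The calls of named genes were not followed in the fit of transcripts, so it is not among their alternatives. The difference of Mapk3 turned positive at 0.02 with quantile normalization, 0.02 with equal total FPKM, and ran from -0.07 to 0.02 without a library. The values gave no sign that the replicate numbers pair the libraries, and the labels do not say whether they do. Deviations of libraries with the same number correlated across genes at -0.1 to 0.05 over the 6 pairs of groups. With the replicate block, 564 differences, 1696 WT changes and 2 KO changes were called, and 552 of the 830 genes were called again.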
